A study of Mus musculus with 4 samples.

Results

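The uroplakins are the membrane proteins that pave the inner surface of the urinary tract. All 5 genes of the family named here, Upk1a, Upk1b, Upk2, Upk3a and Upk3b, were measured in whole mouse ureter, each by 1 probe set, among 19296 genes in all. The genes were taken by name, with earlier results of these data known, and all 5 lay above background on every array. The study compared male mice of a mixed 129Sv/C57BL6 strain, 2 wild type (miR-143/145+/+) and 2 lacking the miR-143/145 genes (miR-143/145-/-), with 1 ureter array each. At 4.5 months of age the wild type animals had normal kidneys, while the knockout animals, at 2.5 months, had hydronephrosis, a widening of the kidney by urine that does not drain. The effects of genotype, age and hydronephrosis cannot be told apart in this design. How the deleted allele was made and in which cells it was lost are not given in the sources used here.

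Uroplakins are made in the urothelium, the epithelium that lines the ureter, bladder and renal pelvis, and most strongly in the umbrella cells at its surface. Upk1a and Upk1b encode tetraspanins, proteins that cross the membrane several times. Upk2, Upk3a and Upk3b encode partners that cross it once. Upk1a pairs with Upk2, and Upk1b pairs with Upk3a or Upk3b, before the proteins leave the endoplasmic reticulum. The pairs then assemble into crystalline plaques that travel in vesicles to the apical membrane, where they stiffen it and keep it nearly impermeable to water. Upk1a is also the receptor by which uropathogenic bacteria attach, and mice without Upk2 or Upk3a develop hydronephrosis. Upk1b and Upk3b are also made in mesothelium, the lining of the peritoneal cavity.

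All 5 uroplakin genes measured higher in both knockout mice than in both wild type mice, by 1.30-fold to 1.59-fold, and none passed an adjusted p of 0.05 in the comparison over all genes. The values are log2 expression values from the authors' RMA processing, and the difference of group means was tested with limma, with Benjamini-Hochberg adjustment over 19296 genes. Upk2 measured 11.84 and 12.11 in the wild type mice and 12.43 and 12.86 in the knockout mice. The lowest knockout value lay 0.32 above the highest wild type value. The difference was 0.67 (SE 0.18, 95% interval 0.26 to 1.09), or 1.59-fold, with a limma adjusted p of 0.0813. It was the largest of the 5.

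Upk3a, the partner of Upk1b in the mature plaque, measured 10.82 and 11.06 in wild type against 11.32 and 11.82 in knockout ureter. The groups did not overlap, although the knockout mice differed from each other by 0.50. The difference between genotypes was 0.63 (SE 0.19, 95% interval 0.19 to 1.07), with a limma adjusted p of 0.0980. Upk3b, which can take the place of Upk3a in the pair with Upk1b, measured 11.40 and 11.76 in wild type against 11.99 and 12.32 in knockout ureter. Here the mice within each genotype lay about equally far apart, by 0.35 and 0.32. The difference was 0.57 (SE 0.17, 95% interval 0.17 to 0.97), with a limma adjusted p of 0.0988.

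The tetraspanin members had the smallest differences. Upk1a measured 12.73 and 12.86 in wild type against 13.03 and 13.40 in knockout ureter, a difference of 0.42 (SE 0.15, 95% interval 0.05 to 0.78, limma adjusted p = 0.147). The gap between the groups was 0.16, the narrowest of the 5. Upk1b measured 12.69 and 12.70 in wild type against 12.92 and 13.23 in knockout ureter. Its wild type mice differed by only 0.01, its knockout mice by 0.31. The difference between genotypes was 0.38 (SE 0.14, 95% interval 0.05 to 0.70, limma adjusted p = 0.147).

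**Figure D1:**
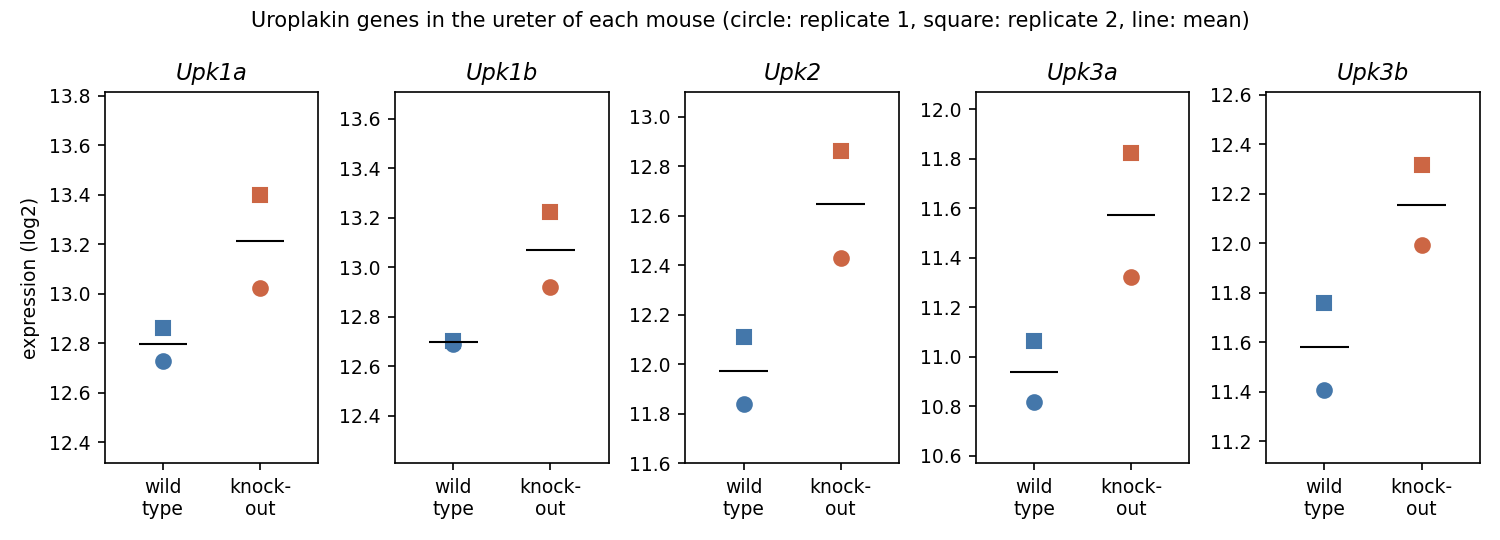
Log2 expression of each uroplakin gene (one panel per gene, each vertical axis spanning the same log2 range) in the wild type and knockout mice; circles are replicate 1, squares replicate 2 and lines the group means. In every panel both knockout mice lie above both wild type mice, with knockout replicate 2 highest, at 12.86 for Upk2 and 13.40 for Upk1a.

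Set against all genes, the members' counts read as follows. An adjusted p under 0.05 with a rise in knockout was reached by 1.90% of genes and by 0 of 5 uroplakins. At an unadjusted limma p under 0.05, 12.7% of genes and 5 of 5 uroplakins were higher in knockout. That count was 3 of 5 after centring each array on its median, 0 without wild type replicate 1, 3 without wild type replicate 2 and 2 without knockout replicate 2. Both knockout mice lay above both wild type mice for 28.0% of genes and for 5 of 5 uroplakins. The median difference was 0.57 over the uroplakins and -0.02 over all genes. A difference at least as large as that of Upk1b, the smallest of the 5, was found for 10.6% of genes. Upk2 ranked 615th of 19296 by its difference, and Upk1b 2047th. The 5 genes are all made in urothelium and share the same 4 arrays, so they do not count as independent observations.

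The mice of one genotype differed in the same way for all 5 genes. Wild type replicate 1 was lowest and knockout replicate 2 highest for each of them, with wild type replicate 2 below knockout replicate 1. This order of the 4 mice was met by 9.90% of all genes. Averaged over the 5 genes, after each was centred on its own mean, the values were -0.37 and -0.17 in wild type against 0.07 and 0.46 in knockout ureter. The knockout mice thus lay 0.39 apart, against 0.53 between the genotypes. Leaving out knockout replicate 1 leaves 1 knockout mouse, so the spread comes from the wild type pair and limma's prior over genes, and the lone mouse is assumed to vary like them. On that assumption Upk2 differed by 0.89 (limma adjusted p = 0.00906), Upk3a by 0.88 (0.00878), Upk3b by 0.74 (0.0288) and Upk1a by 0.60 (0.0447), and these 4 passed. Upk1b then had an adjusted p of 0.0723, and 1744 genes passed in all, against 459, or 2.38% of those tested, with every mouse. Without knockout replicate 2, none of the 5 passed and their adjusted p ran from 0.194 to 0.522.

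Within the pairs that form the plaque, the single-span partner measured relatively higher in knockout than its tetraspanin. The centred Upk2 value minus the centred Upk1a value was -0.20 and -0.06 in wild type against 0.10 and 0.16 in knockout ureter, a change of 0.25. For Upk3a against Upk1b the values were -0.25 and -0.01 in wild type against 0.03 and 0.23 in knockout, a change of 0.26. For Upk3b against Upk1b they were -0.27 and 0.07 in wild type against 0.09 and 0.11 in knockout, a change of 0.20. The genotypes did not overlap in any of the 3 comparisons, but an exact two-sided permutation test of 2 against 2 mice gave p = 0.333 for each, the smallest value this design allows. Upk1a and Upk1b also had the highest log2 values of the 5 probe sets, and the part of signal level in their smaller differences was not tested.

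Promoter sequences of 3 members, Upk1a, Upk3a and Upk3b, are shown because the genes lay in the same order across mice although they are on different chromosomes. Each runs 5′ to 3′ on the strand of the gene, from 250 bases before to 50 bases after the start site, and comes from RefSeq on GRCm38.p6. Capitals mark matches, on either strand, to any of 8 motifs searched.

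Upk1a promoter (chr7:30612685-30612984, minus strand): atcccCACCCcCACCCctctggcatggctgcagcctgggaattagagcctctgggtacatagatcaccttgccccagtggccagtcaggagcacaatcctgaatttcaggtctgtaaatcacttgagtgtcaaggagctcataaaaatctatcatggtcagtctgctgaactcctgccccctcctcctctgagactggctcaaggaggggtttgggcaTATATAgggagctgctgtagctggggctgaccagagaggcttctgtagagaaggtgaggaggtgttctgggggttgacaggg
Upk3a promoter (chr15:85016891-85017190, plus strand): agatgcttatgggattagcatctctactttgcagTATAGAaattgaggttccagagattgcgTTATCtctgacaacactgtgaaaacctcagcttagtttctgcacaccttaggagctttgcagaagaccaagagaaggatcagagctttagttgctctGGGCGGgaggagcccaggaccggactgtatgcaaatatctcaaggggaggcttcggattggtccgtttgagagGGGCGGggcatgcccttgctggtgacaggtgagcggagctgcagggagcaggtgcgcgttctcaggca
Upk3b promoter (chr5:136038246-136038545, plus strand): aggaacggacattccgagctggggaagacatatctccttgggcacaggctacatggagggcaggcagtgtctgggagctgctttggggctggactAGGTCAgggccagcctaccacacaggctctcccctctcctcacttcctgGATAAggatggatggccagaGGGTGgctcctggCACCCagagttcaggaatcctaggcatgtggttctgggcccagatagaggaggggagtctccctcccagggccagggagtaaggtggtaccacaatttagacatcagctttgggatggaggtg

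The motifs were the TATA box (TATANA), the GC box (GGGCGG), the CACCC box (CACCC), the GATA site (GATAA), the Grainyhead-like site (AACNNGTT), the nuclear receptor element (AGGTCA), the AP-1 site (TGACTCA) and the forkhead site (TGTTTAC). Upk1a held a TATA box from -32 to -27 relative to the start site, a motif present in 24.7% of all 32851 promoters of the same length, and a pair of CACCC boxes (57.5% of promoters). Upk3a held GC boxes from -91 to -86 and from -18 to -13 (35.7% of promoters), a GATA site from -188 to -184 (25.4%) and a TATA match far upstream, from -216 to -211. Upk3b held a GATA site from -106 to -102, CACCC boxes from -86 to -82 and from -73 to -69, and the nuclear receptor element from -155 to -150 (16.3% of promoters). The Grainyhead-like, AP-1 and forkhead motifs, found in 4.20%, 5.20% and 3.65% of promoters, had no match in these 3 windows. None of the motifs was shared by all 3 windows. Such matches describe the letters only. Upk1b and Upk2 were not among the promoters printed.

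The chromosomal neighbours of the uroplakins leaned neither way as a whole. The nearest tested genes, 2 on each side of each member, gave 20 genes with a median difference of -0.11. Of these, 6 lay wholly higher in knockout and 7 wholly lower, near the 28.0% and 32.0% of all genes, and 7 overlapped. By limma 0 passed an adjusted p of 0.05. The unadjusted p was under 0.05 for 2 that were higher and for 2 that were lower, against 12.7% and 13.8% of all genes. The difference of Upk1b was reached by 2 of the 20, a share near the 10.6% of all genes, namely B4galt4 beside Upk1b at 0.47 and Fam118a beside Upk3a at 0.48. Upk3bl, a relative of Upk3b that lies next to it, measured 6.84 and 6.97 in wild type against 6.74 and 6.50 in knockout ureter. It was thus close to the background level of log2 6.58 and 0.29 lower in knockout (limma adjusted p = 0.216). Dtx2, on the other side of Upk3b, was lower by a log2 difference of -0.54 (adjusted p = 0.0587). These neighbours were looked up after the values of the members were known.

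Genes that carry uroplakins to and from the apical membrane leaned the same way. Of 14 tested, 12 were higher in knockout, 10 of them without overlap, against 28.0% of all genes. The median difference was 0.34 and 0 passed by limma. An unadjusted limma p under 0.05 was met by 7 higher and 1 lower, against 12.7% and 13.8% of all genes. Snx31, a sorting nexin that binds uroplakins on their way to degradation, measured 11.32 and 11.54 in wild type against 12.01 and 12.48 in knockout ureter, a difference of 0.81 (limma adjusted p = 0.0614). Rab27a, a small GTPase of secretory vesicles, measured 8.42 in both wild type mice and 8.91 and 9.18 in the knockout mice (0.62, adjusted p = 0.0581). Sytl2, which binds Rab27 proteins, differed by 0.76 (adjusted p = 0.0634). Rab27b, the form found on uroplakin vesicles, differed by 0.67, Mal2 by 0.54 and Mal, which helps to insert uroplakin vesicles into the apical membrane, by 0.38. Vps33a, needed for delivery to lysosomes, and Tollip, an endosomal adaptor, differed by -0.10 and 0.02, and Rab13 by -0.29. Snx31 differed by 1.05 without knockout replicate 1 and by 0.58 without knockout replicate 2. With robust eBayes 3 genes of this list passed, all higher in knockout, where 902 of all genes passed.

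Markers of the superficial urothelium were mostly higher in knockout as well. Of 13 tested, 11 were higher without overlap, against 28.0% of all genes, and 0 passed by limma. An unadjusted limma p under 0.05 was met by 11 higher and 1 lower, against 12.7% and 13.8% of all genes. The median difference was 0.53. Krt7, a keratin of simple epithelia, measured 11.90 and 12.21 in wild type against 12.56 and 12.85 in knockout ureter (0.65, limma adjusted p = 0.0732). Cldn4, a tight junction protein, differed by 0.71 (adjusted p = 0.0939), and Krt20, the keratin of umbrella cells, by 0.66. The exceptions were Cldn3, at -0.39 (adjusted p = 0.0959), and Upk3bl. Krt7 differed by 0.80 without knockout replicate 1 and by 0.50 without knockout replicate 2.

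The transcription factors of urothelium had the highest median difference of the 15 lists beside the uroplakins, 0.70. Of the 15 genes 2 rose, against 1.90% of all genes. Grhl2, a Grainyhead-like factor of epithelial cells, measured 7.70 and 7.96 in wild type against 8.89 and 8.90 in knockout ureter, and rose by 1.07 (SE 0.13, limma adjusted p = 0.0238). Trp63, the factor of basal cells, rose by 0.83 (SE 0.15, adjusted p = 0.0486). Gata3 differed by 0.84 (adjusted p = 0.0566), Grhl3, which is known to act on uroplakin genes in umbrella cells, by 0.77 (adjusted p = 0.0925), and Klf5 by 0.72 (adjusted p = 0.0809). Pparg, a nuclear receptor that promotes urothelial differentiation and is also abundant in fat, measured 12.21 and 12.22 in wild type against 12.07 and 11.90 in knockout ureter (-0.23, adjusted p = 0.261). It was the 1 gene of the list that was lower. Trp63 no longer passed after a further quantile normalization (limma adjusted p = 0.0675), after centring each array on its median (0.0508) and without knockout replicate 2 (0.0593). Grhl2 had an adjusted p of 0.183 without wild type replicate 1 and of 0.1998 without wild type replicate 2, and since no gene on the array passed by limma in either case, each rise named for any list ended there too.

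Basal urothelium was divided. Of 15 tested genes 11 were higher, 2 rose, against 1.90% of all genes, and the median was 0.18. Without overlap 8 were higher and 2 lower, against 28.0% and 32.0% of all genes. An unadjusted limma p under 0.05 was met by 7 higher and 2 lower, against 12.7% and 13.8%. The 2 lower genes were Col17a1, at -0.30, and Krt17, at -0.28 and below background in both genotypes. Lamb3, a laminin chain of the epithelial basement membrane, rose by 0.82 (SE 0.12, limma adjusted p = 0.0353), and Trp63 was the other. Perp, a desmosomal protein, differed by 0.77 (adjusted p = 0.0607), Krt5, the keratin of basal cells, by 0.64 (adjusted p = 0.0692) and the signalling protein gene Shh by 0.64 (adjusted p = 0.0759). Krt14, a keratin of the most basal cells, measured 6.71 and 6.91 in wild type against 6.81 and 6.86 in knockout ureter, close to background, and differed by 0.03. After a further quantile normalization Lamb3 no longer passed (limma adjusted p = 0.0539).

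Genes shared by most epithelia were nearly all higher in knockout. Of 20 tested, 19 were higher in knockout without overlap, against 28.0% of all genes. Of the 20, 2 rose, against 1.90% of all genes, and the median difference was 0.68. Esrp1, an epithelial splicing regulator, rose by 0.89 (SE 0.15, limma adjusted p = 0.0403), and Ap1m2, part of a sorting adaptor of epithelial cells, rose by 0.83 (SE 0.15, adjusted p = 0.0490). Ocln, a tight junction protein, differed by 0.74 (adjusted p = 0.0517), Cdh1 by 0.60 and Epcam by 0.49. Centred on their mean over the 4 mice, the epithelial genes averaged -0.42 and -0.16 in wild type against 0.15 and 0.44 in knockout ureter. Once this epithelial mean was subtracted, the difference between genotypes was 0.09 for Upk2, 0.05 for Upk3a, -0.01 for Upk3b, -0.17 for Upk1a and -0.21 for Upk1b. Relative to the epithelial mean, the genotypes overlapped for Upk3a and Upk3b and, by a margin of 0.01, did not for Upk2, while both knockout mice lay below both wild type mice for Upk1a and Upk1b. Other lists gave other values. With the superficial urothelium mean the differences were 0.24 for Upk2, 0.20 for Upk3a, 0.14 for Upk3b, -0.01 for Upk1a and -0.05 for Upk1b. The genotypes then overlapped only for Upk1a and Upk1b. In that order the differences were 0.11, 0.07, 0.01, -0.15 and -0.19 with the transcription factor mean. They were 0.33, 0.29, 0.23, 0.07 and 0.03 with the plaque trafficking mean and 0.38, 0.34, 0.28, 0.13 and 0.09 with the basal mean. In whole ureter a larger share of urothelial cells and more uroplakin RNA per cell cannot be told apart. After a further quantile normalization Esrp1 (limma adjusted p = 0.0634) and Ap1m2 (0.0718) no longer passed. Ap1m2 also missed the threshold after centring (0.0509), with array weights (0.0509) and without knockout replicate 2 (0.0641). Esrp1 differed by 1.01 without knockout replicate 1 and by 0.77 without knockout replicate 2.

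**Figure D2:**
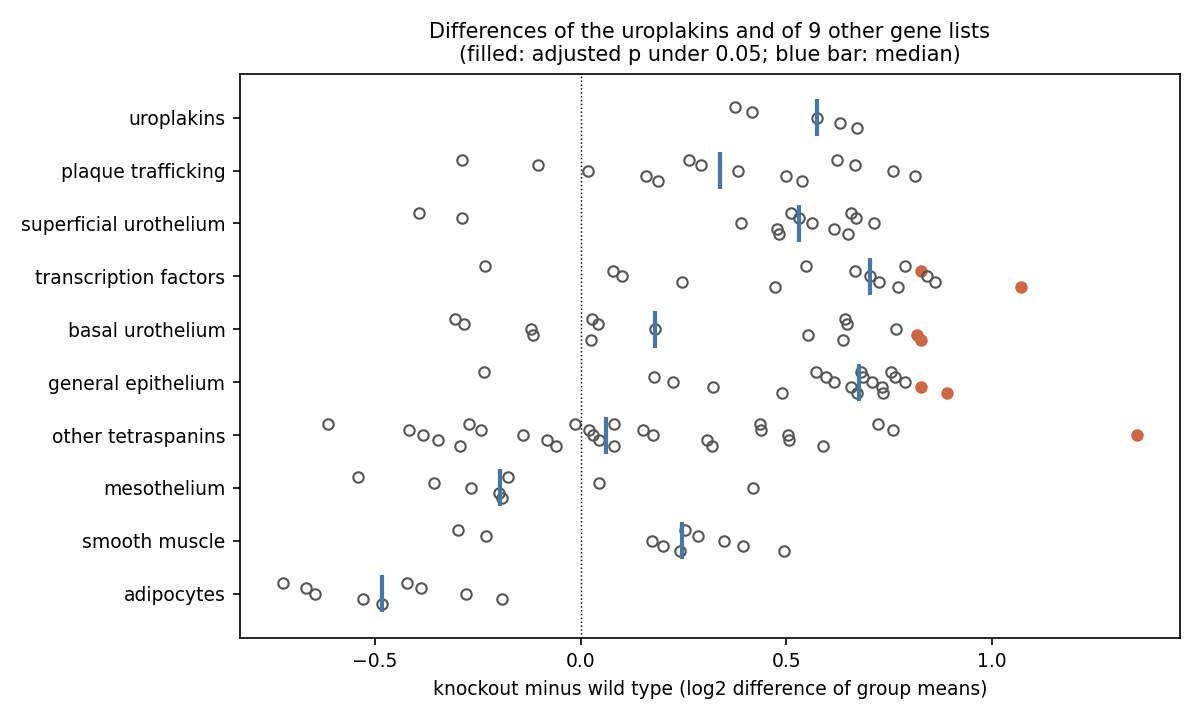
Difference between knockout and wild type (horizontal axis, log2) for each tested gene of the uroplakins and of 9 other lists (rows); filled points passed a limma adjusted p of 0.05 and blue bars are list medians. The uroplakins lie between 0.38 and 0.67 around a median of 0.57, near the medians of superficial urothelium (0.53) and general epithelium (0.68), whereas mesothelium has a median of -0.20.

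Other tetraspanins, the larger family of Upk1a and Upk1b, were mixed in direction. Of 28 tested, 17 were higher and 11 lower, 1 rose, against 1.90% of all genes, and the median was 0.06. Without overlap 11 were higher and 7 lower, against 28.0% and 32.0% of all genes. An unadjusted limma p under 0.05 was met by 9 higher and 4 lower, against 12.7% and 13.8%. Among the lower genes, Prph2 differed by -0.61, with a knockout mean below background, Tspan10 by -0.38 and Tspan12 by -0.35. Tspan8, a tetraspanin of epithelial cells, measured 7.29 and 7.31 in wild type against 8.41 and 8.89 in knockout ureter, and rose by 1.35 (SE 0.17, limma adjusted p = 0.0263). Cd9 differed by 0.72 (adjusted p = 0.0517) and Tspan4 by 0.76 (adjusted p = 0.0566), while Cd81, at 12.56 and 12.60 in wild type against 12.65 and 12.60 in knockout, differed by 0.04. Tspan8 differed by 1.59 without knockout replicate 1 and by 1.11 without knockout replicate 2.

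Mesothelial genes, which could share Upk1b and Upk3b, were mostly lower in knockout, though few of the differences were clear. Of 8 tested, 6 were lower, 3 of them without overlap against 32.0% of all genes, and 0 passed by limma. An unadjusted p under 0.05 with a lower value in knockout was met by 1 of 8 and by 13.8% of all genes. Wholly higher in knockout were 0 of 8, against 28.0% of all genes. Higher at an unadjusted p under 0.05 were 0 of 8, against 12.7%. The median was -0.20, against -0.02 over all genes. Msln, the defining marker, measured 6.51 and 6.81 in wild type against 6.34 and 6.63 in knockout ureter, at the background level. Cldn15 differed by -0.54 (adjusted p = 0.0855), Wt1 by -0.36 (adjusted p = 0.209) and Gpm6a by 0.42 (adjusted p = 0.233). The list mean was 7.29 and 7.56 in wild type against 7.18 and 7.35 in knockout ureter. Gpm6a measured 7.31 and 7.80 in wild type against 7.77 and 8.17 in knockout ureter. The part of mesothelium in the differences of Upk1b and Upk3b was not tested.

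Genes of kidney tubules differed between mice of one genotype. Their list mean was 7.08 and 7.69 in wild type replicates 1 and 2, 8.73 in knockout replicate 1 and 7.18 in knockout replicate 2. The uroplakins were higher in knockout replicate 2 than in knockout replicate 1, so leaving out knockout replicate 1 had to enlarge their differences. The part of kidney tissue in the uroplakin differences was not tested. Of the 18 tubule genes 0 passed by limma, while an unadjusted p under 0.05 was met by 2 higher and 1 lower. Over all genes these shares were 12.7% and 13.8%. The tubule genes with the smallest p were Cubn, which takes up filtered protein in proximal tubules, at 1.15 (adjusted p = 0.0762) and Scnn1g, a sodium channel subunit, at 0.70 (adjusted p = 0.0744). Scnn1g measured 9.74 and 10.01 in wild type against 10.37 and 10.79 in knockout ureter, the order of mice seen for the uroplakins and for no other gene of the kidney list.

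Fat and wall genes completed the check of the tissue. All 9 adipocyte genes were lower in knockout and 0 passed by limma, with 5 lower at an unadjusted p under 0.05, against 13.8% of all genes. Their mean was 12.96 and 12.86 in wild type against 12.66 and 12.20 in knockout ureter, lowest in the mouse with the highest uroplakins, and Adipoq and Retn differed by -0.73 and -0.65. The part of fat content in the uroplakin differences was not tested. Of 10 smooth muscle genes 8 were higher and 0 passed, and the median was 0.25. At an unadjusted limma p under 0.05, 4 were higher, against 12.7% of all genes. Cnn1 differed by 0.49 and Myh11 by 0.35. Fibroblast genes were higher, and 3 of 7 rose, against 1.90% of all genes: Lum by 1.70, Col1a1 by 0.96 and Col1a2 by 0.79. The call of Col1a1 ended after a further quantile normalization (limma adjusted p = 0.0647). The 5 endothelial genes were all lower, 3 of them without overlap against 32.0% of all genes, and 0 passed. An unadjusted limma p under 0.05 was met by 2, against 13.8% of all genes, namely Kdr at -0.55 and Cdh5 at -0.41. Of 6 leukocyte genes 5 were lower and 0 passed, with 1 lower at an unadjusted p under 0.05, near the share of all genes, and Csf1r and Cd3e differed by -0.27 and -0.32. Of 8 proliferation genes 5 were higher and 3 lower, and 1 rose, against 1.90% of all genes. It was Mcm6, part of the replicative helicase, by 0.83, while Mcm2 differed by 0.22. All 9 tested genes of male accessory glands were below background in both genotypes. The deleted genes themselves read lower: Mir145a measured 8.28 and 8.42 in wild type against 4.60 and 5.02 in knockout, and Mir143 measured 7.64 and 7.85 in wild type against 6.48 and 6.53 in knockout ureter.

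**Figure D3:**
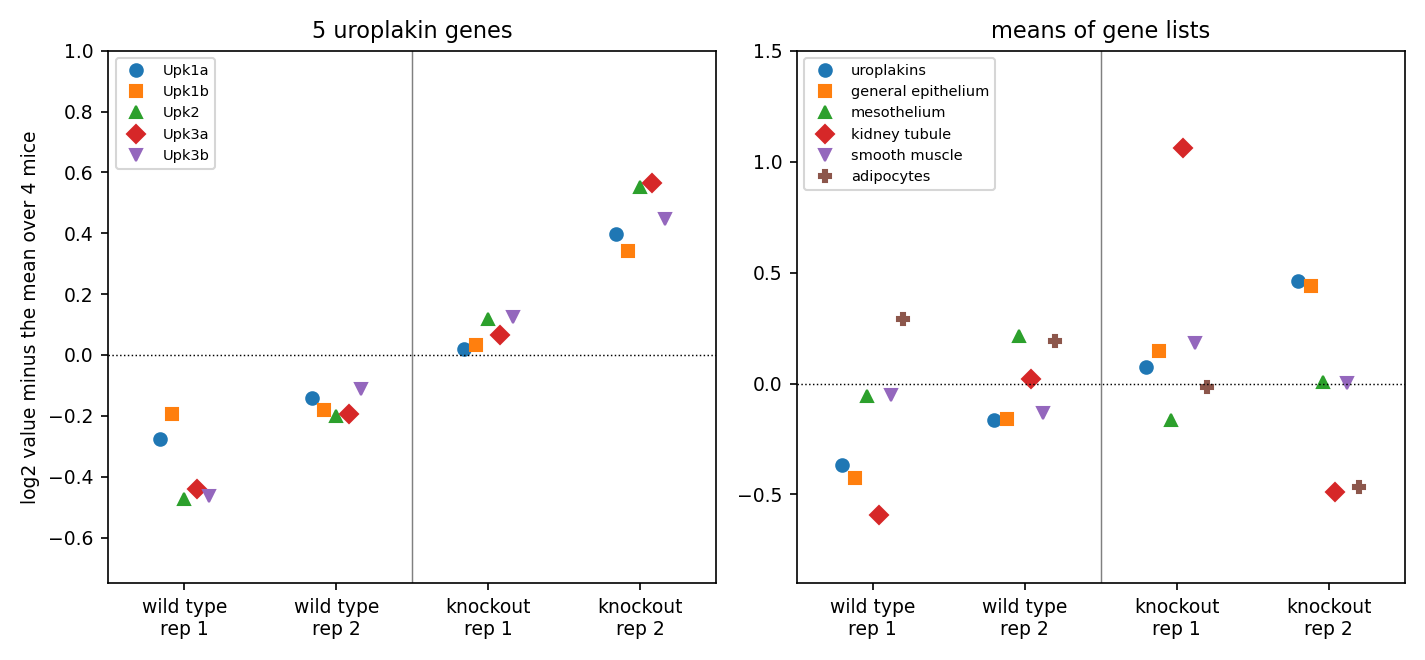
Log2 value minus the mean over the 4 mice (vertical axes) in each mouse (horizontal axis) for the 5 uroplakin genes (left) and for the means of 6 gene lists (right). The uroplakin mean runs from -0.37 in wild type replicate 1 to 0.46 in knockout replicate 2 beside the epithelial mean of -0.42 to 0.44, while the kidney mean peaks at 1.06 in knockout replicate 1.

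The genes whose pattern over the 4 mice lay nearest to the uroplakin mean were sought among 13328 genes above background in both genotypes, by the root mean square distance between centred log2 profiles. The nearest was Isg20, which encodes an exonuclease, at a distance of 0.0096, where the median gene lay at 0.307. Isg20 measured 9.06 and 9.24 in wild type against 9.47 and 9.87 in knockout ureter. Olfml2a followed at 0.0149, Mal2 at 0.0169, Icosl, a ligand of T cell costimulation, at 0.0204, Zfp827 at 0.0210 and the Wnt receptor gene Fzd6 at 0.0210. Their differences between genotypes ran from 0.50 for Zfp827 to 0.56 for Fzd6, and none passed. Mal2 was the 1 gene among these 6 that belonged to a list used here. Likeness over 4 arrays rests on few values and describes these mice only.

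**Figure D4:**
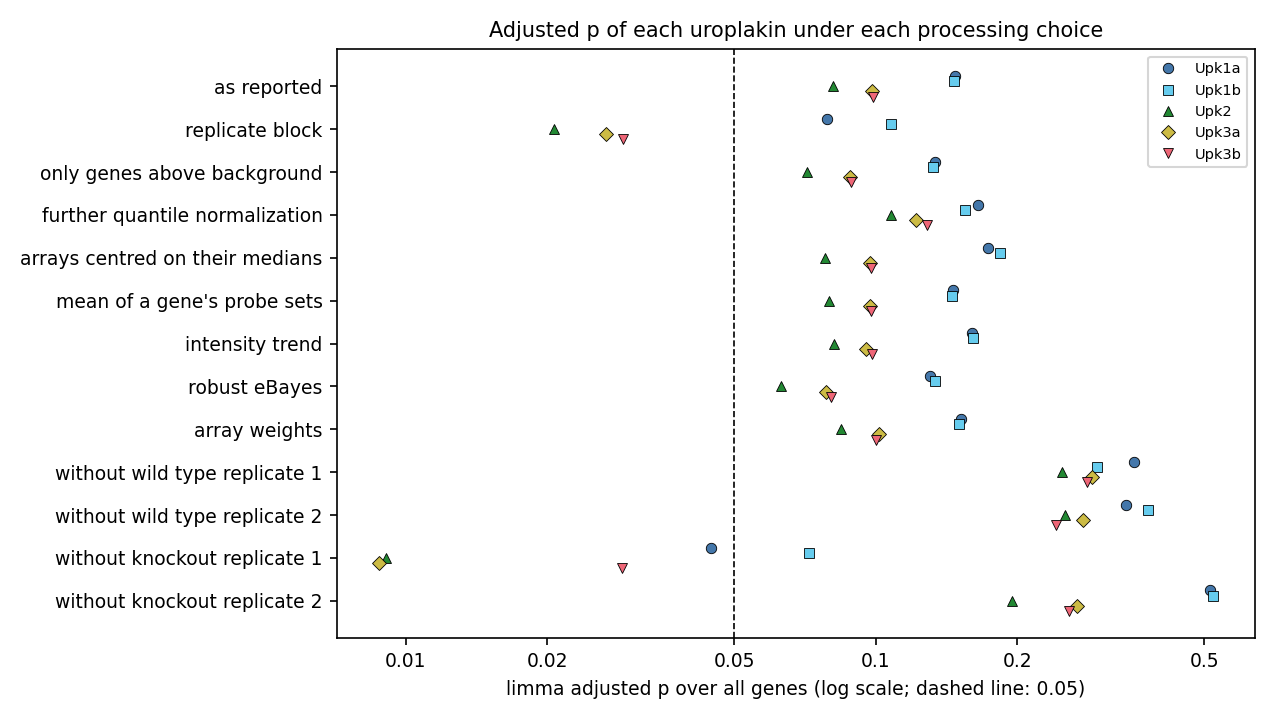
Limma adjusted p over all genes (horizontal axis, log scale, dashed line at 0.05) of each uroplakin (symbols) under each processing choice (rows). Upk2, Upk3a and Upk3b lie below 0.05 with a replicate block and without knockout replicate 1, where Upk1a does too at 0.0447, and Upk1b lies above 0.05 in every row.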

How the data were processed

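Each mouse gave 500 ng of ureter RNA for an Affymetrix whole-transcript array, per the labels' protocols. The authors deposited log2 expression values, for which the submitters' processing notes name RMA, limma 3.12.1 and R 2.15.0. RMA makes the arrays' distributions alike and would shrink any change common to most genes. A genome build for the probe sets was not given in the sources used.

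Of 23309 probe sets, 20728 had exactly 1 symbol in the platform annotation, and the brightest per gene by the mean of the 4 arrays gave 19296 genes. Each uroplakin had 1 probe set. Background was the 95th percentile of the means of 1012 olfactory receptor genes, log2 6.58. The genotypes were compared in R 4.3.3 using limma 3.58.1 (lmFit, eBayes), p-values being adjusted by Benjamini-Hochberg across the 19296 genes, with a threshold of 0.05; SE is the moderated standard error. The labels call the mice biological replicates. Intervals are 95% intervals from the same fit. Arrays have no counting depth, and 2 mice per genotype limit the precision. The fit was tested on simulated data in which 200 of 19296 genes were changed. It recovered 0% of them at a log2 change of 0.5, 80.5% at 1 and 99.5% at 2, with 0, 9 and 10 false calls. The simulated noise was independent between genes. In the data 5110 genes had an unadjusted limma p under 0.05, far more than were changed in the simulation. These shares therefore need not hold for the data.

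Members and lists were chosen with earlier results of these data known. The 15 lists beside the uroplakins held 6 on urothelium, epithelium and tetraspanins and 9 on other cells; 8 of their genes had no probe set with 1 symbol. Named genes are the 5 members, the 3 genes of smallest p above background in each of the 6 lists and the 2 in each of the others, and the 6 nearest in pattern. Others, such as Gpm6a, Krt20, Krt5, Krt14, Krt17, Col17a1, Shh, Mal, Rab27b, Vps33a, Tollip, Rab13, Grhl3, Klf5, Pparg, Cdh1, Epcam, Cd81, Prph2, Tspan10, Tspan12, Col1a2 and the neighbours, were named after their values were seen. Promoters of 3 of the 5 members were matched by symbol. Replicate numbers were not taken to pair mice: deviations from the group means of same-numbered mice correlated at -0.03 across probe sets.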

Additional observations from a re-analysis of the deposited data

How the results depend on the processing

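Each uroplakin was higher in knockout under all 12 alternatives tried, but most of these could not have shown otherwise. They kept the members' log2 values or left out a mouse, and the genotypes did not overlap for any uroplakin. Only the further quantile normalization and the centring altered the members' values. A like limit holds for the direction of the 39 other named genes below, which did not overlap either. With the replicate number as a block, 3 uroplakins passed (Upk2 by 0.67 at a limma adjusted p of 0.0207, Upk3a by 0.63 at 0.0267 and Upk3b by 0.57 at 0.0290), and 1922 genes passed in all; the labels do not pair the mice. With one mouse left out at a time, which leaves a genotype with 1 mouse assumed to vary like the other pair, the uroplakins passing ranged from 0 to 4 and all genes passing from 0 to 1744. The differences then ranged from 0.46 to 0.89 for Upk2, 0.38 to 0.88 for Upk3a, 0.40 to 0.75 for Upk3b, 0.23 to 0.60 for Upk1a and 0.22 to 0.53 for Upk1b. Without wild type replicate 1 and without wild type replicate 2, 0 genes passed by limma (4253 and 3079 at an unadjusted p under 0.05), so every call named in the text was lost. All genes passing numbered 215 with a further quantile normalization and 902 with robust eBayes, with 0 uroplakins in both (5 in both at an unadjusted limma p under 0.05, a count that centring lowered to 3 and leaving out a mouse to as few as 0). The 459 genes that passed were 367 higher and 92 lower, and centring each array on its median gave 245 higher and 148 lower and shifted the median over all genes to -0.09, against -0.02 as deposited. The cause of these shifts was not tested. Over 39 other named genes no difference changed direction; of 468 values, 376 kept their side of the threshold, 28 lost the call and 64 gained it. The uroplakins lay above log2 10.8 on every array, well over the background of 6.58.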
